A study of Mus musculus with 2 samples.

Results

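High mobility group (HMG) proteins are abundant chromatin proteins that are not histones, and their 9 genes measured here fall into 3 families: Hmgb1, Hmgb2 and Hmgb3; Hmgn1, Hmgn2, Hmgn3 and Hmgn5; and Hmga1 and Hmga2. They were chosen by symbol from the 19202 genes of the deposited table, matched by Ensembl identifier, and all 9 were found. RNA was sequenced from the telencephalon of C57BL/6 mouse embryos at embryonic day 12, in a conditional knockout of the histone variant H2A.Z (H2AZ cKO) and in mice with the floxed allele (H2AZfl/fl, the floxed control). The tissue label reads telencephalic while the protocol speaks of cerebral cortex. Nothing in the labels names the Cre driver, the exons removed, the cells Cre acts in or the number of embryos behind a sample. The series text speaks of triplicates, but each genotype had 1 column of read counts, called here the knockout library and the control library, so no difference below has a replicate check and none was tested.

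HMGB proteins bend DNA through HMG boxes and loosen its wrapping on the nucleosome. HMGN proteins bind the nucleosome core itself and oppose the compaction brought by linker histone H1. HMGA proteins hold the minor groove of AT-rich DNA with short motifs called AT-hooks. In the developing mouse brain several of them are high in dividing neural progenitors and fall as neurons mature, and Hmga2 is known to sustain self-renewal of fetal neural stem cells.

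The promoters of Hmgb2, Hmgb3 and Hmga2 are shown because Hmgb2 had the highest and Hmga2 the lowest genotype ratio described below, with Hmgb3 the 6th of 9, and because no annotated exon of GENCODE M21 overlaps these windows. They were chosen with the ratios known, and their motif counts do not stand for the other genes. Each is the 250 bases before the RefSeq start (GRCm38.p6), 5′ to 3′ on the gene's strand. Capitals mark matches, on either strand and with no overlap between motifs, to the CCAAT box (CCAAT), the CHR element of cell cycle genes (TTTGAA) and the GC box (GGGCGG).
Hmgb2, chr8:57511593-57511842, plus strand: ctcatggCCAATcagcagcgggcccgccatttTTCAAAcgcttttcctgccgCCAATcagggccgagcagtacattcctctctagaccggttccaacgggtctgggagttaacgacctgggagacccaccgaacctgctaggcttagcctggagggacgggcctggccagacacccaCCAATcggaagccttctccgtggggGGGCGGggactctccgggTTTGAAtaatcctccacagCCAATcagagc
Hmgb3, chrX:71555667-71555916, plus strand: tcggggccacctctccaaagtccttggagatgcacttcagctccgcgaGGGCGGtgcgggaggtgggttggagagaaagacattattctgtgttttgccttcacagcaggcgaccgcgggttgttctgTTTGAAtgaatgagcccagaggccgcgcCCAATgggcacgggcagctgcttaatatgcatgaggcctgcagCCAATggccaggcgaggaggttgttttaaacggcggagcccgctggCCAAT
Hmga2, chr10:120476470-120476719, minus strand: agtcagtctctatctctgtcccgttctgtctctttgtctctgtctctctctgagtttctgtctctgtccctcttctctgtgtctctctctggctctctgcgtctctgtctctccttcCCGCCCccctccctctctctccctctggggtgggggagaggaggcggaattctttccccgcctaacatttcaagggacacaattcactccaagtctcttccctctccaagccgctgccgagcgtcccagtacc
The Hmgb2 window held 4 CCAAT boxes and 2 CHR matches, one of them 30 to 25 bases before the start (-30 to -25), between CCAAT boxes at -73 to -69 and -11 to -7. Hmgb3 held 3 CCAAT boxes and 1 CHR match at -122 to -117. Hmga2 held neither and had 1 GC box. Hmgn2, whose ratio was nearly that of Hmgb2, also had 0 CCAAT boxes and 0 CHR matches, with 2 GC boxes. Of 32851 RefSeq windows of this length, 33.8% held a CCAAT box, 16.0% the CHR letters, 5.55% both and 32.7% a GC box. Those shares are per window. Among the 8 HMG genes with a window in the RefSeq table, 5 had a CCAAT box, 2 a CHR match and 7 a GC box in any of their windows. Hmgb1 and Hmga1 had 2 windows each, and Hmgb1 had its CCAAT boxes in one and its GC boxes in the other. That other Hmgb1 window, with 4 GC boxes and 0 CHR matches, also overlaps no annotated exon but is not shown. Both genes with a CHR match are among those shown. The motifs TATAAA, TTTGGCGC and TTTCGCGC (a TATA box and E2F sites) had no match in any HMG window, against 12.4%, 0.417% and 0.256% of all windows. A match of letters describes the sequence and is not a measured site.

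Hmga2 is known as a target of the let-7 microRNAs, which repress it through its 3′ untranslated region in the mouse brain. The mature let-7a sequence of RefSeq, with the seed (bases 2 to 8) in capitals, and the seed matches found in the 3′ untranslated region of the longest coding Hmga2 transcript of GENCODE M21 (GRCm38), with the match in capitals, are given to show these sites.
let-7a-5p: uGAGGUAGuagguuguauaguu
Hmga2, chr10:120364225-120364246, minus strand: gccgacattcaatttCTACCTC
Hmga2, chr10:120362988-120363009, minus strand: ccccactcctcaataCTACCTC
Hmga2, chr10:120362550-120362571, minus strand: ctgatttgcaaggaaCTACCTC
Hmga2, chr10:120361692-120361713, minus strand: aatcaaaacacactaCTACCTC
These 4 matches lie in 3014 bases of Hmga2. Hmga1 had 1 such match in 1178 bases, and the other 7 HMG transcripts, with 575 to 2035 bases of 3′ untranslated region, had 0. Only exact matches to bases 2 to 8 were searched, so sites of other kinds are not counted. The search covered HMG transcripts alone, and no share over all genes can be set beside these counts. The microRNA itself was not measured here.

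All 9 HMG genes stood higher in the knockout than in the control, and none was lower. Hmgb2 and Hmgn2 differed most, at ratios of 1.25 each, and Hmga2 least, at 1.05. Summed, the 9 genes held 24443 counts in the knockout and 21306 in the control, or 0.277% and 0.240% of all counts. After the TMM scaling described next, these were 2804 and 2363 CPM, a ratio of 1.19 (95% counting interval 1.17 to 1.21). Levels are CPM, counts relative to library size, after TMM scaling, which weighs the libraries by the bulk of their genes. Ratios are those of the scaled CPM, knockout over control, also where counts stand beside them. The intervals of ratios and shares are exact Clopper-Pearson intervals from the counts. They cover counting error only and no spread between animals. Even for counting error they may be too narrow, since reads that carry no molecular identifier may be copies of 1 molecule. In whole tissue, fewer cells of a type and less RNA per cell cannot be told apart.

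**Figure D1:**
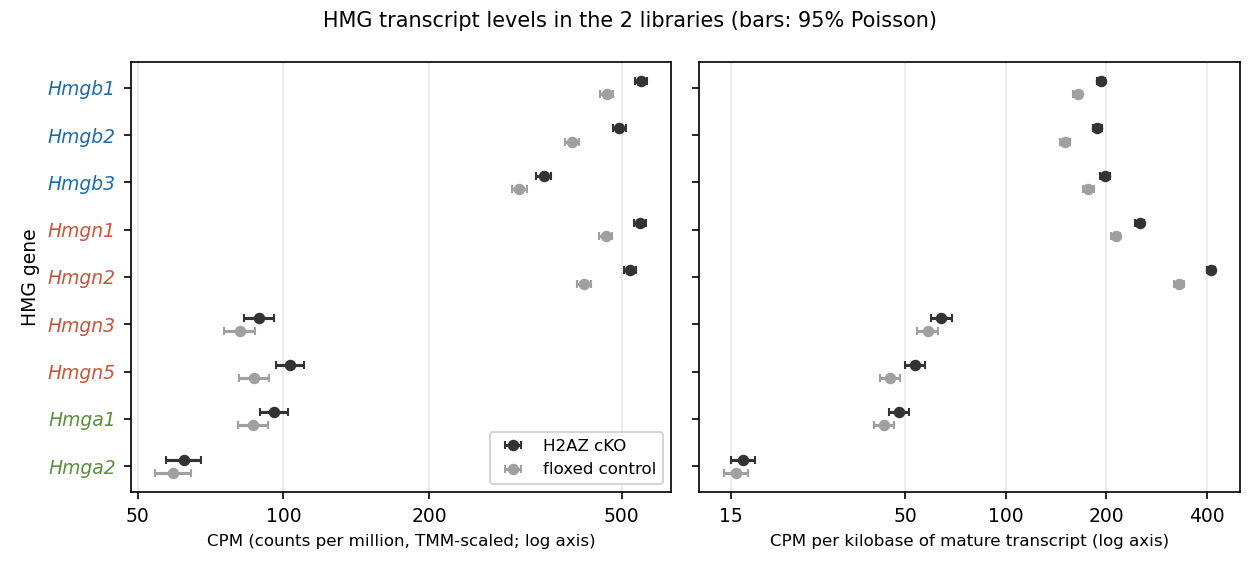
Level of each HMG gene in the knockout (dark) and the control (grey), as CPM on the left and as CPM per kilobase of the longest coding transcript on the right, both on log axes with 95% Poisson intervals of the count. Hmgb1, Hmgb2, Hmgb3, Hmgn1 and Hmgn2 lie between 307 and 548 CPM and the other 4 between 59.2 and 103 CPM, and the dark point lies to the right of the grey one in all 9. Gene names are coloured by family.

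The positions given are those of the deposited table, which match GRCm38. Among the HMGB genes, Hmgb1 (ENSMUSG00000066551, chr5:149046702-149184489, minus strand), the HMG gene with most counts, had 4773 counts in the knockout and 4195 in the control, or 548 and 465 CPM. Its ratio was 1.18 (1.13 to 1.23). The protein is the general nuclear HMGB factor and, when released from cells, an inflammatory signal. Hmgb2 (ENSMUSG00000054717, chr8:57511843-57515999, plus strand), which is high in dividing cells, had 4308 and 3564 counts, or 494 and 395 CPM, a ratio of 1.25 (1.196 to 1.31). Hmgb3 (ENSMUSG00000015217, chrX:71555918-71560676, plus strand), known from stem and progenitor cells, had 3006 and 2772 counts, or 345 and 307 CPM, a ratio of 1.12 (1.07 to 1.18). For each of the 3 the Poisson intervals of the levels did not meet, as for Hmgb1, at 532 to 563 CPM against 451 to 479.5 CPM.

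Hmgn1 and Hmgn2, nucleosome binders, were the higher pair of HMGN genes per transcript length, as the levels per kilobase below show. Hmgn1 (ENSMUSG00000040681, chr16:96120618-96127729, minus strand) had 4764 counts in the knockout and 4177 in the control (547 and 463 CPM), a ratio of 1.18 (1.13 to 1.23). Hmgn2 (ENSMUSG00000003038, chr4:133964738-133968650, minus strand) had 4538 and 3768 (521 and 418 CPM), a ratio of 1.25 (1.19 to 1.301). Hmgn3 and Hmgn5 were lower per length in both libraries. Hmgn3 (ENSMUSG00000066456, chr9:83109948-83146685, minus strand) had 777 counts against 732 (89.1 and 81.2 CPM), and its interval of 0.991 to 1.22 around a ratio of 1.098 held 1. Hmgn5 (ENSMUSG00000031245, chrX:109004534-109013404, minus strand), whose protein carries a long acidic tail, had 901 against 784 (103 and 86.9 CPM), a ratio of 1.19 (1.08 to 1.31). Its reading frame, at 1221 bases with the stop codon, was the longest of the 9, while those of the other HMGN genes ran from 291 to 387 bases.

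The HMGA genes bind AT-rich DNA and held the fewest counts of the 3 families. Hmga1 (ENSMUSG00000046711, chr17:27556620-27563674, plus strand) had 834 counts in the knockout and 780 in the control (95.7 and 86.5 CPM), a ratio of 1.11 with an interval of 1.002 to 1.22 that reached down almost to 1. Hmga2 (ENSMUSG00000056758, chr10:120361275-120476469, minus strand) had 542 and 534 counts (62.2 and 59.2 CPM), a ratio of 1.05 (0.930 to 1.19). The levels of Hmga1, Hmga2 and Hmgn3 overlapped between the libraries within counting error.

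**Figure D2:**
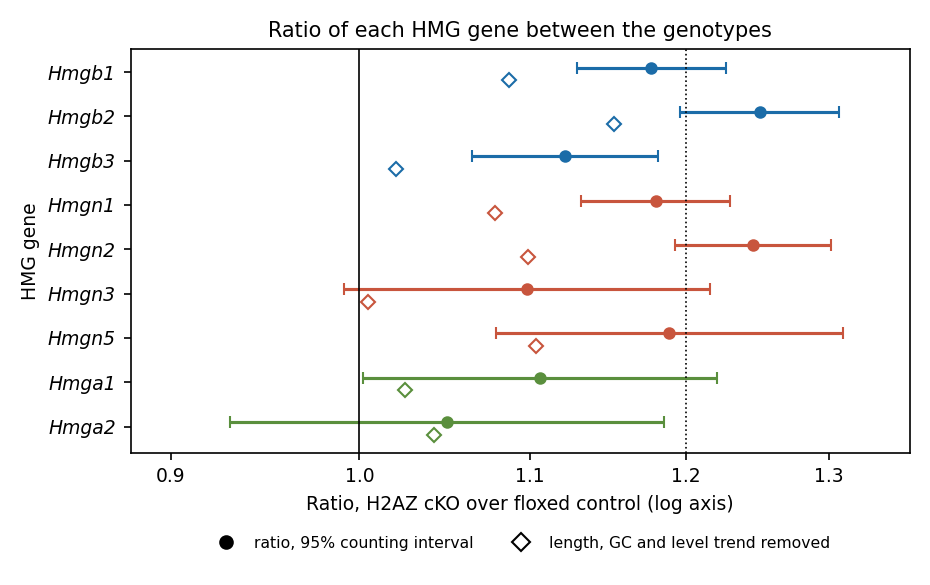
Ratio of each HMG gene, knockout over control, on a log axis (filled circles, 95% counting interval) and after a fitted trend with level, GC content and transcript length was taken out (open diamonds). The solid line marks 1 and the dotted line 1.2; circles run from 1.05 (Hmga2) to 1.25 (Hmgb2), and the diamonds from 1.005 (Hmgn3) to 1.15 (Hmgb2).

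Set against the whole table, the HMG genes lay in the upper part of small differences. On the log2(CPM + 1) scale their log2 ratios ran from 0.07 to 0.32 with a median of 0.23, while the median was 0.00603 over the 14586 genes with 1 CPM or more in at least one library, called tested here although no test was run. All 9 HMG genes passed that floor. All 9 were above 0, against 51.0% of all genes tested. The counting interval lay wholly above 1 for 7 of 9 (all but Hmgn3 and Hmga2), against 12.6% of all genes, and for 0 of 9 wholly below 1, against 11.2%. It was 6 of 9 with the libraries scaled by total count, by DESeq2 size factors or as deposited, where the lower bound of Hmga1 was 0.974, 0.986 and 0.974. At least 1.2-fold higher were 2 of 9, Hmgb2 and Hmgn2, against 11.4%, and at least 1.2-fold lower 0 of 9, against 13.4%. None reached 1.5-fold, which 4.95% of all genes did in one direction or the other. Since HMG genes are abundant and narrow intervals come with many counts, the same shares were taken among the 5139 genes with a mean of 50 CPM or more: 56.4% were above 0, 23.3% had an interval wholly above 1, 15.1% one wholly below 1, 4.26% were at least 1.2-fold higher and 3.33% at least 1.2-fold lower. The log2 ratio of Hmgb2 lay above that of 92.0% of all genes tested, that of Hmgb1 above 86.5% and that of Hmga2 above 62.5%. In the authors' deposited table the fold changes of the 9 genes ran from 1.02 to 1.22.

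**Figure D3:**
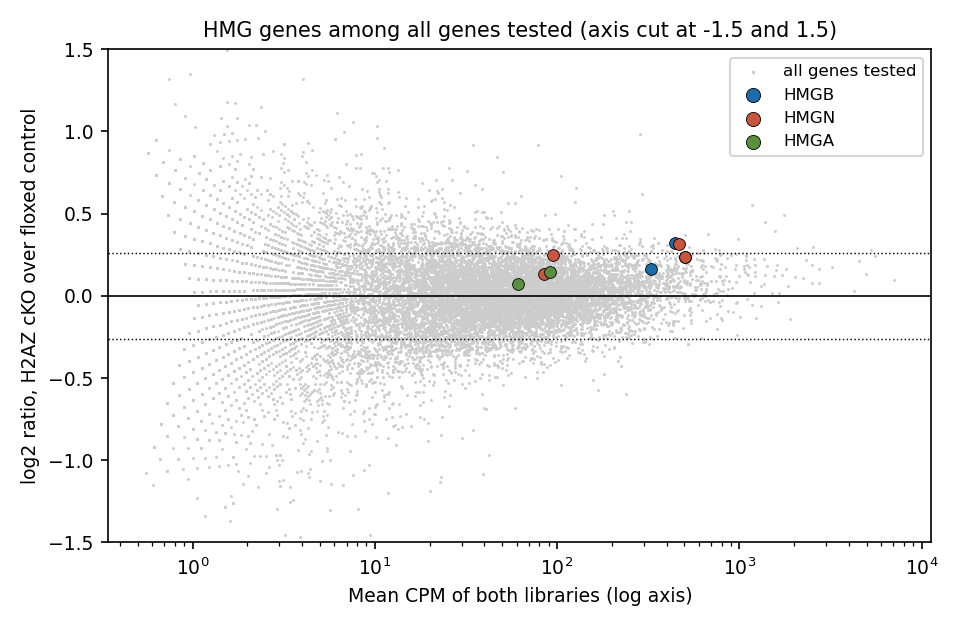
Log2 ratio (vertical axis) against mean CPM of both libraries (log axis) for all genes tested (grey) and the HMG genes by family, with dotted lines at 1.2-fold. The 9 HMG genes lie between 0.07 and 0.32, all above the line at 0 and 2 of them above 1.2-fold.

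The ratio of a gene moved with the length of its transcript across the table. With the genes put into 4 classes of equal size by length, the shortest class (57 to 1985 bases) had a median log2 ratio of 0.09 and the longest (at least 4662 bases) one of -0.08. The longest coding transcripts of the HMG genes measured 1265 bases (Hmgn2) to 3810 bases (Hmga2). Of the 9, 4 fell in the shortest class, 4 in the second (median 0.03) and 1, Hmga2, in the third (median -0.00641). GC content ran from 38.7% in Hmgb2 to 61.4% in Hmga1, and 8 of the 9 were in the top class when genes were split the same way by level. After a trend fitted jointly on those properties was removed, all 9 were above 0, against 48.1% of all genes and 46.1% of those at 50 CPM or more. Their median was then 0.11, and 0 of 9 were at least 1.2-fold higher, against 10.5% of all genes and 77 of 5139 (1.5%) at 50 CPM or more. Hmgb2 then had the highest log2 ratio, 0.20, followed by Hmgn5 at 0.14, Hmgn2 at 0.14, Hmgb1 at 0.12 and Hmgn1 at 0.11. Hmgn3, Hmgb3, Hmga1 and Hmga2 were at 0.00718, 0.03, 0.04 and 0.06.

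**Figure D4:**
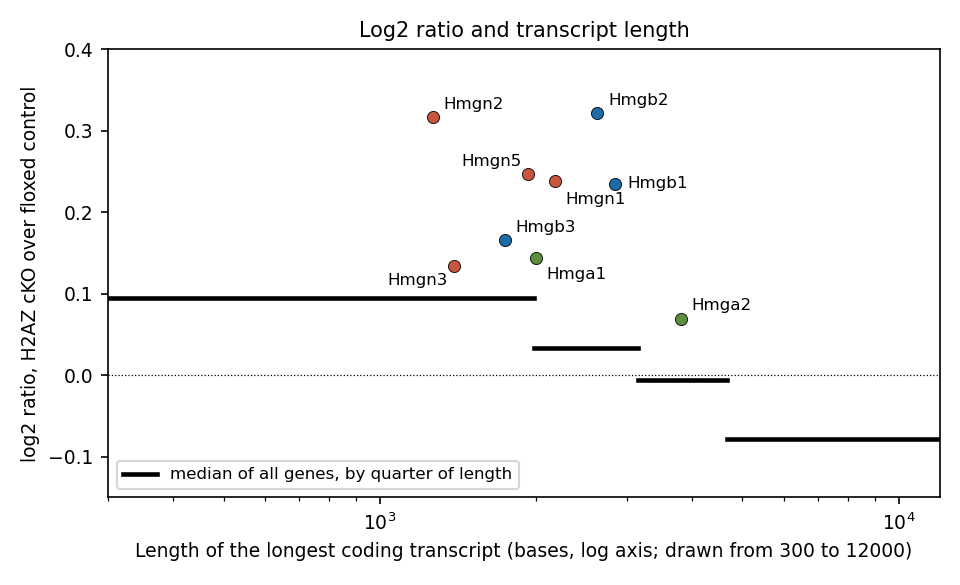
Log2 ratio of each HMG gene against the length of its longest coding transcript (bases, log axis), coloured by family, with black bars for the median of all genes in each of 4 length classes. Each HMG gene lies above the bar of its class, and the bars step down from 0.09 to -0.08.

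The makeup of each family does not depend on how the libraries are scaled, and no share differed by more than 1.80 percentage points. Hmgb1 took 39.5% (38.6 to 40.4) of HMGB counts in the knockout and 39.8% (38.9 to 40.8) in the control. Hmgb2 took 35.6% (34.8 to 36.5) and 33.8% (32.9 to 34.8), and Hmgb3 24.9% (24.1 to 25.7) and 26.3% (25.5 to 27.2). The ratio of Hmgb2 exceeded that of Hmgb3 by a factor of 1.11 (1.04 to 1.19), an interval from counting error that left out 1. In the HMGN family, Hmgn1 and Hmgn2 took 43.4% and 41.3% in the knockout and 44.1% and 39.8% in the control, Hmgn5 8.21% and 8.29%, and Hmgn3 7.08% and 7.74%. The ratio of Hmgn2 exceeded that of Hmgn3 by a factor of 1.13 (1.01 to 1.27). These were the 2 of 10 pairs within families whose interval left out 1, with no adjustment over the 10 pairs. Hmga1 took 60.6% (58.0 to 63.2) of HMGA counts in the knockout and 59.4% (56.6 to 62.0) in the control. As sums, the ratio was 1.19 (1.16 to 1.22) for HMGB, 1.201 (1.17 to 1.23) for HMGN and 1.08 (1.004 to 1.17) for HMGA, whose interval, like that of Hmga1, began close to 1.

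**Figure D5:**
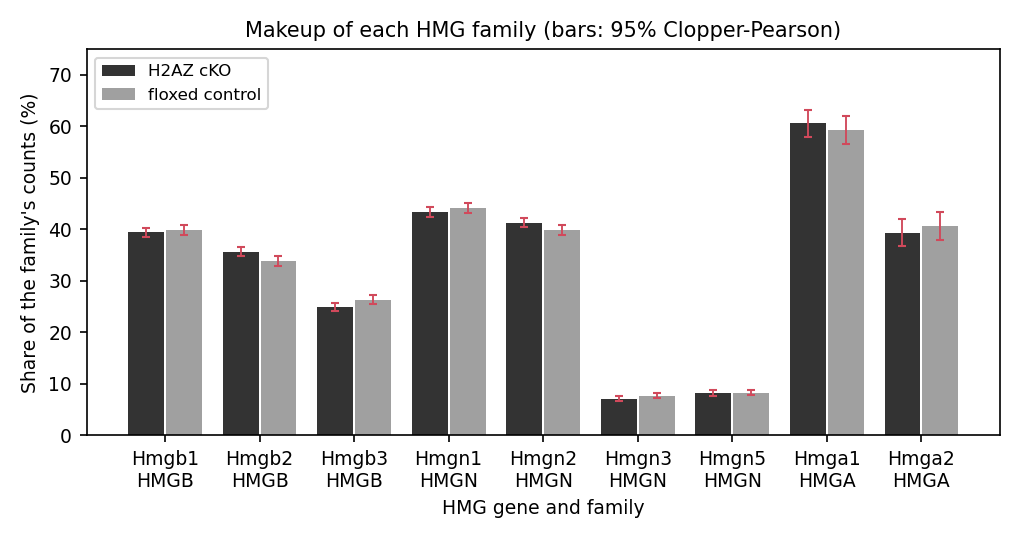
Share of each gene in the counts of its own family, in percent, in the knockout (dark) and the control (grey), with 95% Clopper-Pearson intervals in red. Dark and grey bars of a gene differ by at most 1.80 percentage points, the difference of Hmgb2.

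Abundances of different HMG transcripts were compared per length. In CPM per kilobase of the longest coding transcript, Hmgn2 was the highest, at 412 in the knockout and 330.3 in the control, followed by Hmgn1 at 251 and 213. The 3 HMGB genes followed close together in the knockout, with Hmgb3 at 198, Hmgb1 at 193 and Hmgb2 at 188, whose Poisson intervals met. In the control they stood at 176, 164 and 150.4 CPM per kilobase, with intervals that did not meet. Below them came Hmgn3 at 64.1 and 58.4, Hmgn5 at 53.5 and 45.0 and Hmga1 at 47.8 and 43.2, and the intervals of Hmgn5 and Hmga1 met in both libraries. Hmga2 was the lowest, at 16.3 and 15.5. This order rests on the transcript chosen: per kilobase of all annotated exons, Hmgn2 stood at 170.1 and Hmgn1 at 169.7 in the knockout, while in the control Hmgn1 came first at 143.8, Hmgb3 next at 137.6 and Hmgn2 only then at 136.6. On that scale Hmgb1 stood at 109 and 92.6, Hmgn5 came above Hmgn3 in both libraries, and Hmga2 was again the lowest at 9.18 and 8.74.

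By likeness of CPM in both libraries (Euclidean distance on log2(CPM + 1) over the 2 libraries, not corrected for length and so no comparison of transcript abundance), the genes near Hmgb1 included Hmgn1 (distance 0.00676) and Klc1 (0.0344). Those near Hmgb2 included the ribosomal protein gene Rps14 (0.0183) and Dynll1 (0.0691).

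Many processed copies of HMG genes lie in the mouse genome. The table held 41 other rows whose deposited UniProt description names an HMGB or HMGN protein, 39 of them annotated as pseudogenes, with 240 counts in the knockout and 158 in the control. That equals 0.982% and 0.742% of the counts of the 9 genes. The ratio of the copies was 1.57 (1.28 to 1.93), and it was 1.24 (0.961 to 1.59) without Gm14448 and Gm10282, which were picked after their values were seen. Gm14448, an X-linked pseudogene of Hmgb1, had 82 counts against 38, a ratio of 2.23 (1.502 to 3.37), and Gm10282, an Hmgn2-like gene annotated as coding, had 16 against 1. All 1033 pseudogene rows of the table had a summed ratio of 1.11 (1.08 to 1.14). No label says how reads that match several places were counted, so reads may be split between these genes and their copies. Exons of Hmgb1, Hmgn3, Hmga1 and Hmga2 overlap those of other genes by 22 to 255 bases. The overlapping rows with counts were Uspl1 (625 and 593), AI413582 (83 and 91), Gm2065 (2 and 8) and 1700006J14Rik (2 and 1), all on the opposite strand.

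Genes that work with or against HMG proteins were read from lists. Beside their counts stand the shares of all genes: 51.0% above 0, 12.6% with an interval wholly above 1 and 11.4% at least 1.2-fold higher. Among genes at a mean of 50 CPM or more, where intervals are narrow, these were 56.4%, 23.3% and 4.26%. Linker histone H1 had 7 genes in the deposited table, of which 3 reached 1 CPM, with a median log2 ratio of 0.26: H1fx had 2534 counts against 1830, a ratio of 1.43 (1.35 to 1.52), and H1f0 7505 against 6502, a ratio of 1.19 (1.15 to 1.23), while Hist1h1c was at 0.868 (0.634 to 1.19). Once that fitted trend was taken out, H1fx had a log2 ratio of 0.09 in place of 0.52, and the median of the 3 was also 0.09. A list built around the SET complex, in which HMGB2 is found, and the histone chaperone FACT had 8 genes. It also held Anp32b and Anp32e, relatives of Anp32a. Of the 8, 6 were above 0, and 4 of them, Anp32e included, had an interval wholly above 1. The median log2 ratio of these 8 was 0.12, and 0.05 with the trend removed. Apex1, a DNA repair nuclease, was at 1.18 (1.03 to 1.35), Anp32a at 1.17 (1.12 to 1.21), Set at 1.12 (1.07 to 1.17) and Nme1 at 1.09 (0.984 to 1.22). The pair below 0 were both FACT subunits, Supt16 at 0.923 (0.842 to 1.01) and Ssrp1 at 0.993 (0.944 to 1.04), named here after their values were seen. The 17 other HMG-box chromatin genes had a median of -0.01, with 7 above 0 and 10 below, and 0 at least 1.2-fold higher. Among them Hmgxb3 was at 0.777 (0.664 to 0.909), Tox at 1.14 (0.975 to 1.33) and Bbx at 0.879 (0.735 to 1.05). All 4 TCF and LEF factors, the HMG-box effectors of Wnt signalling, were below 0, led by Tcf7l2 with 246 counts against 506, a ratio of 0.503 (0.430 to 0.587). Tcf7 was at 0.808 (0.561 to 1.16), Tcf7l1 at 0.893 (0.794 to 1.005) and Lef1 at 0.918 (0.747 to 1.13). Tcf7l2 is also a marker of the diencephalon, whose marker list is given below.

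Against 51.0% of all genes above 0, 2 of 7 tested genes of the Lin28 and let-7 list, around Hmga2, were above 0 and 5 below. Their median was -0.25 on the log2 scale, -0.16 with a pseudocount of 5 CPM, -0.14 with the trend removed and 0.02 among those at a mean of 50 CPM or more. Under the other scalings 1 of 7 was above 0. The share of all genes above 0 was lower there too, at 43.6% by total count or as deposited and 46.5% by DESeq2 size factors. Arid3b was at 0.754 (0.592 to 0.959), Igf2bp3 at 0.785 (0.663 to 0.930) and Lin28b at 0.795 (0.6002 to 1.05), while Mycn was at 1.29 (1.19 to 1.40). The let-7 inhibitor Lin28a (3 and 6 counts) and Trim71 (1 and 7) were under the floor. Of 6 tested receptors and partners of secreted HMGB1 none had an interval that left out 1. Among all genes 12.6% had one wholly above 1 and 11.2% one wholly below, and 6 genes are too few to set against these shares. The RAGE gene Ager was at 0.834 (0.612 to 1.13), and Tlr2 was under the floor with 6 and 4 counts.

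Cell cycle genes, among which Hmgb2 is usually counted, were given beside it. In the G2/M list, 25 of 30 genes had a log2 ratio above 0, 17 had an interval wholly above 1 and 4 were at least 1.2-fold higher. The shares given above were 51.0%, 12.6% and 11.4% of all genes. Among genes at a mean of 50 CPM or more they were 56.4%, 23.3% and 4.26%. The median was 0.13. With total-count or deposited scaling 2 were at least 1.2-fold higher (9.08% of all genes). With the trend removed it was 1, against 10.5% of all genes and 1.5% of those at a mean of 50 CPM or more. The median was then 0.08. Cdk1 was at 1.32 (1.21 to 1.43), Cks1b at 1.27 (1.14 to 1.41), Birc5 at 1.23 (1.12 to 1.35) and Cdca3 at 1.21 (1.14 to 1.297). In the G1/S list, beside the same shares, 26 of 28 genes lay above 0, 15 had an interval wholly above 1 and 6 were past 1.2-fold upward. Their median was 0.17. The 6 became 3 with total-count or deposited scaling and 1 with the trend removed, beside the shares given for the G2/M list. With the trend removed the median was 0.14. Ung was at 1.31 (1.12 to 1.53), Tipin at 1.28 (1.15 to 1.42), Slbp at 1.27 (1.15 to 1.41) and Mcm7 at 1.22 (1.16 to 1.29). Their part in the HMG ratios was not tested.

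As a check of the labels, the targeted gene H2afz had 1664 counts in the knockout and 2605 in the control, a ratio of 0.661 (0.621 to 0.703), and its paralog H2afv stood at 1.25 (1.19 to 1.33). The 12 telencephalic progenitor and 12 neuron markers were all tested, with summed ratios of 1.08 (1.06 to 1.09) and 1.02 (1.01 to 1.04). The 12 ventral telencephalon markers summed to 1889 and 1451 CPM, a ratio of 1.302 (1.27 to 1.33). The 12 of the diencephalon and hypothalamus summed to 114 and 210.2 CPM, a ratio of 0.542 (0.501 to 0.585). Of these, Nkx2-4 and Rax had 0 counts in the knockout and only 25 and 9 in the control, with Rax under the floor. Erythroid markers (8 of 9 tested) summed to 691 and 364 CPM, led by Hbb-y at 377 and 189.9 CPM, and microglia and macrophage markers (12 of 13 tested) to 65.3 and 48.5 CPM. Xist was at 732 and 22.2 CPM while Ddx3y was at 0 counts against 249, so the libraries differ in sex-linked transcripts, and Hmgb3 and Hmgn5 are X-linked. The 7 HMG genes on autosomes had a median log2 ratio of 0.23, as did all 9. The part of tissue makeup and sex in the HMG ratios was not tested.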

How the data were processed

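Per the labels' protocols, Trizol served for the extraction and an Illumina TruSeq RNA kit for the libraries. Bowtie2 2.2.3, TopHat2 2.0.12, HTSeq 0.6.0 and the build mm9 are named, per the submitters' processing notes, with no role or order. Gene positions in the deposited table fit GRCm38, where 99.5% overlap and 78.7% equal those of their gene in GENCODE M21. Triplicates are mentioned in the series text, but the deposited counts have a single column for each genotype, and no source says whether replicates were pooled. WT in the header was read as H2AZfl/fl, since the series has no further genotype. The deposited counts are whole numbers per gene and sum to 8839840 (H2AZ cKO) and 8891198 (floxed control). The deposited CPM are the counts times 1 constant per library, with a count of 0 written as a small value above 0. The authors' fold change, a ratio of both CPM columns, and its log2 are named per the file headers. The authors' p-values, and their mark of significance, were not used, as no source names their test.

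Symbols were matched by identifier for 19112 genes. CPM used TMM factors of 0.986 and 1.01 (edgeR 4.0.16 in R 4.3.3), and log2 ratios a pseudocount of 1 CPM. Genes at 1 CPM or more in the higher library are called tested, although 1 library a group allows none. Intervals are exact, at 95%. The joint trend was a cubic fit of the log2 ratio on log2 length and GC content of the longest coding transcript (GENCODE M21; the longest transcript for genes with no coding one) and log2 level over 14543 genes. It took up 6.49% of the variance of the log2 ratios, and the shares of its 3 terms were not separated. Promoters and let-7 came from the RefSeq tables for GRCm38.p6. The steps were checked on simulated data. Other tools were matplotlib 3.10.9, scipy 1.17.1, DESeq2 1.42.0, pandas 2.3.3, Python 3.11.15 and numpy 2.4.6. The HMG genes and the lists were chosen with earlier results of these data known. Named are all HMG genes, and in each list those with the largest absolute log2 ratio at 5 CPM or more, besides the most abundant markers. For the H1 list this left 3. Nkx2-4 and Rax, among others, are named outside this rule. Some genes that the rule names are not reported here. Alternatives were scaling by DESeq2 size factors, by total count or as deposited, a floor of 5 CPM or none, pseudocounts of 0.1 and 5 CPM, the trend removed, X-linked HMG genes left out, and family shares per kilobase or with copies added. A floor of 50 CPM, leaving out the X and Y chromosomes, and the copies without Gm14448 and Gm10282 were chosen after seeing the data.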

Additional observations from a re-analysis of the deposited data

How the results depend on the processing

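Level floors cannot alter a gene's own ratio. A pseudocount cannot alter the side of 0 on which a ratio lies, and the deposited CPM nearly repeat the scaling by total count. Under the alternatives other than floors, all 61 recomputed log2 ratios of HMG genes were above 0, and 56 lay within the counting interval of the reported value. For those reasons the 61 are not separate checks. The other 5 came with the joint trend of length, GC content and level removed. With that trend removed the median log2 ratio of the 9 genes was 0.11 and the number at least 1.2-fold higher was 0. Under the pseudocounts and scalings the median lay between 0.19 and 0.24, while scaling by total count moved the median of all genes to -0.03. The number with an interval wholly above 1 was 6 in place of 7 under each other scaling, without Hmga1. The median of the linker histone list turned from 0.26 to -0.19 with no level floor, where 4 more genes with 4 to 6 summed counts entered. Per kilobase the shares of members in their families moved beyond their intervals, while adding the counts of copies kept them within. No paired analysis was possible because each genotype has 1 library, and no library could be left out for the same reason. Depth limits Hmga2 most, whose interval of 0.930 to 1.19 allows a difference in either direction.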
